A study of Homo sapiens with 15 samples.

Results

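Immediate-early transcripts were followed in MelJuSo, a human melanoma cell line, across 5 derived lines with 3 libraries each. The genes were listed by name and matched to the deposited tables by symbol through release 29 of the GENCODE annotation. They are 10 of 58721 genes in the tables (FOS, FOSB, JUN, JUNB, EGR1, IER2, IER3, KLF4, KLF6 and NR4A1), and all 10 passed the filter on low counts that left 14961 genes for testing. Per the labels, 4 of the lines carried 5xALFA-dCas12a-VP64, a Cas12a without nuclease activity, which guide RNAs place at chosen DNA sites, joined to the activation domain VP64 and a peptide tag. A nanobody against the tag added a further domain, nanobody-VP64 in one pair of lines (the VP64 lines) and nanobody-p65 in the other (the p65 lines), and 1 line of each pair also held guides against CD4. The fifth line carried 5xALFA-dCas12a without VP64, a nanobody for which the labels name no further domain, and no guides (the no-domain line). The labels do not say whether a line is a single clone. They describe confluent cells that were scraped off in their medium, pelleted, resuspended, aliquoted into tubes and flash-frozen, with RNA extraction and libraries by a service provider. Whether replicates A, B and C of a line were separate cultures or aliquots of 1 is not stated, so the p-values here reflect the spread among these samples only, which may be technical. Each combination of domain and guides is present as 1 line. A change with guides or with a domain therefore cannot be told apart from other differences between the lines.

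Immediate-early genes are switched on within minutes of a signal, without new protein synthesis, by factors already present in the cell. Serum, growth factors, stress and mechanical disturbance act through MAP kinases on SRF with its ELK cofactors, which bind CArG boxes, and on CREB, which binds cAMP response elements. Most of the transcripts are short-lived, and their products (the FOS and JUN proteins of AP-1, the zinc finger factors EGR1, KLF4 and KLF6, the orphan nuclear receptor NR4A1) go on to control later genes. In melanoma the MAP kinase pathway is often active without an outside signal.

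In hg38, FOS (ENSG00000170345.9) lies on chromosome 14 from 75278774 to 75282230, FOSB (ENSG00000125740.13) on chromosome 19 from 45467995 to 45475179 and EGR1 (ENSG00000120738.7) on chromosome 5 from 138465490 to 138469315. JUN (ENSG00000177606.6) lies on chromosome 1 from 58780788 to 58784327, and JUNB (ENSG00000171223.5) and IER2 (ENSG00000160888.6) on chromosome 19 from 12791496 to 12793315 and from 13150415 to 13154908. IER3 (ENSG00000137331.11) lies on chromosome 6 from 30743199 to 30744554, KLF4 (ENSG00000136826.14) on chromosome 9 from 107484852 to 107490482, KLF6 (ENSG00000067082.14) on chromosome 10 from 3775996 to 3785281 and NR4A1 (ENSG00000123358.19) on chromosome 12 from 52022832 to 52059507. Counts are per whole gene, over all annotated transcripts, so no exon or UTR is resolved.

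The promoter stretches of the 3 genes that differed most between replicates, EGR1, FOS and FOSB, are shown with the letters of response elements marked. A link of these letters to the differences between replicates was not tested. Each runs 5′ to 3′ on the plus strand from 120 to 55 bases before the RefSeq start of the gene in GRCh38.p14 (EGR1 chr5:138465359-138465424, FOS chr14:75278708-75278773, FOSB chr19:45467876-45467941). Capitals mark the letters of a CArG box, named here without its degenerate letters, or of TGACGT, the core of the cAMP response element, which appears as ACGTCA where it lies on the other strand.
EGR1: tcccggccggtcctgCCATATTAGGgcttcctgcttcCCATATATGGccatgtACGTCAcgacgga
FOS: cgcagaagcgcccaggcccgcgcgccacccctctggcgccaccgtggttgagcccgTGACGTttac
FOSB: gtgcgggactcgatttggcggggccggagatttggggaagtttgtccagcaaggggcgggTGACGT
EGR1 held 2 CArG boxes (from -105 to -96 and from -83 to -74) and TGACGT on the other strand at -67 to -62. FOS held TGACGT at -64 to -59 and FOSB at -60 to -55. Both FOS and FOSB also held TATAAA closer to the start, at -33 and -30. RefSeq windows of 250 bases before to 50 after the start were found for 9 of the 10 genes, IER3 being the one without, and were searched on both strands. Of 35116 such windows of all genes, 1.29% held a CArG box, 7.98% TGACGT, 1.85% the longer TGACGTCA that contains it, 7.71% TGANTCA (the AP-1 site), 11.5% TATAAA and 5.07% GCGGGGGCG (the EGR1 site). Besides these, EGR1 held a further TGACGT on the other strand at -136 to -131, JUNB held TATAAA at -31 and KLF6 held GCGGGGGCG at -65, and the windows of JUN, IER2, KLF4 and NR4A1 held none of the letters searched. Sequence beyond these windows was not searched, so a CArG box further upstream of FOS, FOSB or another gene would have been missed. A match of letters is a description of the sequence and not a measured binding site.

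Expected counts summed to 15643705 to 23072512 per library, and no library was left out. CD4, the gene the guides address, stood at 1895 ± 68.7 CPM against 8.83 ± 0.541 in the VP64 lines with and without guides, and at 2063 ± 115 against 10.6 ± 0.563 in the p65 lines (SD, n = 3 libraries), as the labels say. Of 11 melanocyte lineage markers, SOX10 (122 to 237 TPM), GPNMB (107 to 194) and S100B (34.9 to 195) were well detected, MITF stood at 2.88 to 4.39 TPM and MLANA at 0 to 0.53. The T cell genes CD3D, CD3G and CD2 were at 0 in every library. CPM here are counts per 1e6 scaled counts and compare a gene between libraries, while TPM are corrected for transcript length and compare genes with one another.

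By TPM, IER3, an early gene whose product affects cell survival, was the most abundant of the 10, with means of 231 to 511 over the 5 lines. FOS ranged from 20.6 to 197, EGR1 from 44.8 to 145, IER2 from 101 to 137 and JUN from 47.5 to 91.0 mean TPM. KLF6 (22.4 to 39.8), JUNB (20.7 to 37.3), NR4A1 (9.31 to 18.5), FOSB (3.04 to 11.0) and KLF4 (3.06 to 13.5) were lower. Added up, the 10 genes stood at 954 to 1348 TPM in the VP64 line with guides, 953 to 1072 in the no-domain line, 690 to 808 in the VP64 line without guides, 614 to 743 in the p65 line with guides and 515 to 544 in the p65 line without guides. These libraries are bulk samples, in which fewer cells of a type and less RNA per cell cannot be told apart.

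The replicates of 1 line differed most in FOS and FOSB, which pair with JUN proteins to form AP-1, and in EGR1, a zinc finger factor of the serum response. FOS stood at 383, 256 and 132 CPM in replicates A, B and C of the VP64 line with guides and at 101, 82.8 and 44.9 in the p65 line with guides. Without guides it stood at 95.1, 73.6 and 51.3 CPM in the VP64 line, at 35.3, 20.8 and 9.64 in the p65 line, and at 230, 188 and 101 in the no-domain line. In all 5 lines replicate A was the highest and replicate C the lowest, and A exceeded C by 1.85-fold to 3.66-fold. FOSB followed the same order at a lower level. It stood at 31.8, 22.4 and 13.1 CPM (VP64, guides), 15.8, 11.8 and 7.94 (p65, guides), 16.7, 12.1 and 11.4 (VP64, no guides), 10.2, 5.93 and 3.08 (p65, no guides) and 23.8, 22.5 and 14.1 (no activation domain). EGR1 stood at 425, 340 and 214 CPM (VP64, guides), 199, 193 and 140 (p65, guides), 239, 209 and 171 (VP64, no guides), 117, 100.5 and 86.2 (p65, no guides) and 127, 115 and 83.3 (no activation domain). For both genes A was again the highest and C the lowest in all 5 lines, with A over C at 1.47-fold to 3.31-fold for FOSB and 1.35-fold to 1.98-fold for EGR1.

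**Figure D1:**
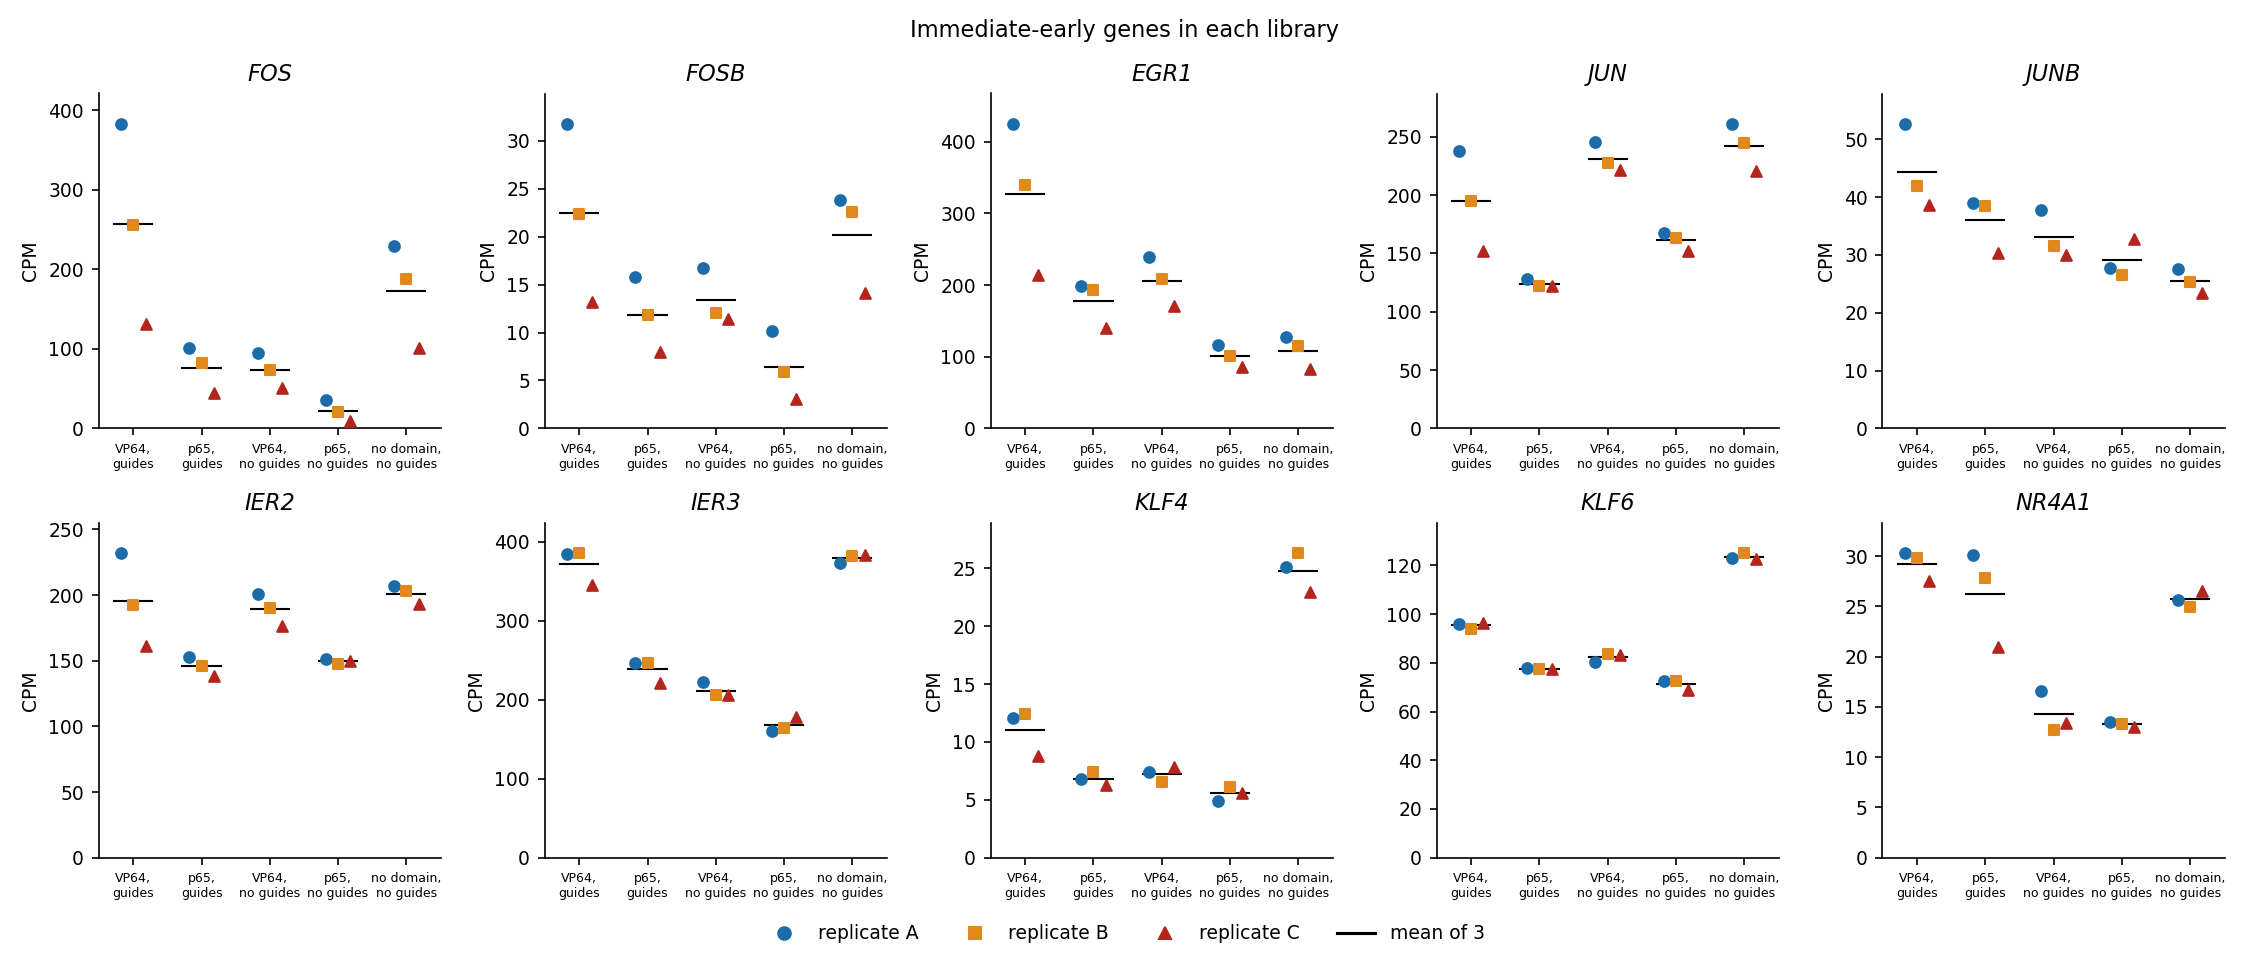
CPM (y axis, linear, from 0) of the 10 genes in the 15 libraries, by line (x axis), with a circle for replicate A, a square for B, a triangle for C and a bar for the mean of the 3. In the FOS, FOSB and EGR1 panels the circle lies above the square and the square above the triangle in all 5 lines, while KLF6 libraries of 1 line nearly coincide.

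The comparison of replicate letters across lines was added after these values had been seen. With line and letter as terms in 1 edgeR quasi-likelihood fit over the 15 libraries, replicate C against A called 3 of the 14961 genes tested (0.0201%) at an adjusted p below 0.05, and these were FOS, EGR1 and FOSB. On the log2 scale FOS fell by 1.29 in C (SE 0.08, adjusted p = 1.92e-08), EGR1 by 0.61 (SE 0.06, adjusted p = 1.66e-05) and FOSB by 1.01 (SE 0.11, adjusted p = 0.000155), each lower in 5 of 5 lines. With each line left out in turn the 3 calls held, at -1.40 to -1.21 for FOS, -0.65 to -0.51 for EGR1 and -1.13 to -0.90 for FOSB. The FOSB call was lost with an offset from the deposited effective lengths (-0.98, adjusted p = 0.0783). Replicate C against B called 2 genes (0.0134%), FOS (-0.85, SE 0.08, adjusted p = 3.01e-05) and EGR1 (-0.42, SE 0.06, adjusted p = 0.00471), but no gene with the length offset, while FOSB stood at -0.58 (SE 0.12, adjusted p = 0.173). Replicate B against A called no gene (0%) in edgeR or in DESeq2. In that comparison 508 genes and 5 of the 10 had an unadjusted p below 0.05, and FOS stood at -0.44 (SE 0.08, adjusted p = 0.205).

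Ranked by p in C against A, FOS, EGR1, FOSB and JUN held places 1 to 4 of 14961 and IER2 place 9. JUN, the AP-1 partner of FOS, stood at -0.25 (SE 0.05, adjusted p = 0.779) and was lower in C than in A in 5 of 5 lines. IER2, an early gene that acts in the nucleus, stood at -0.19 (SE 0.05, adjusted p = 0.999) and was also lower in 5 of 5. JUNB, a second AP-1 partner, stood at -0.23 (SE 0.08, adjusted p = 0.999) and NR4A1 at -0.20 (SE 0.07, adjusted p = 0.999), both lower in 4 of 5 lines. IER3 (-0.05), KLF4 (-0.10) and KLF6 (-0.01) were lower in 3 of 5 lines. In all, 7 of the 10 genes and 537 of all tested genes had an unadjusted p below 0.05.

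**Figure D2:**
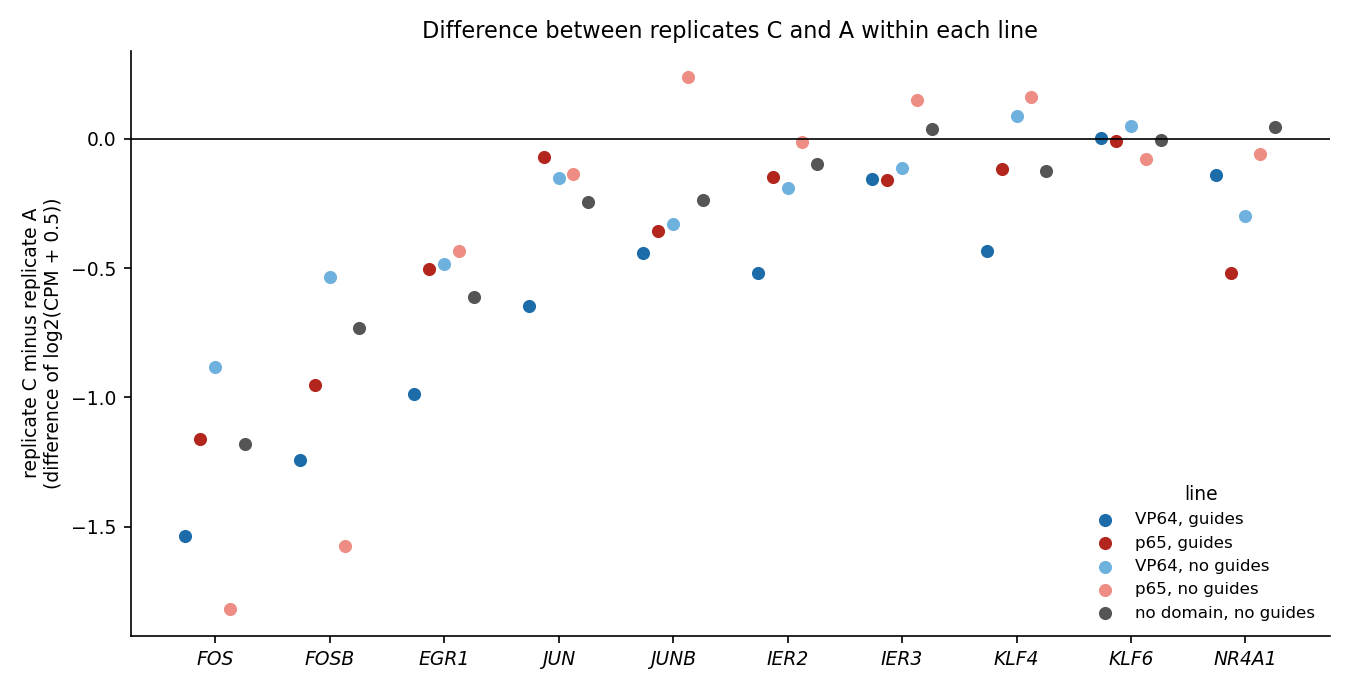
Difference between replicates C and A of log2(CPM + 0.5) (y axis) for the 10 genes (x axis), 1 point per line, with a horizontal line at 0. All 5 points lie below 0 for FOS (down to -1.82), FOSB (down to -1.58), EGR1, JUN and IER2, and the points of IER3, KLF4 and KLF6 lie on both sides of 0.

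Few other genes had this order. Replicate A above B above C in all 5 lines was met by 4 of 14961 genes (0.0267%), EGR1, FOS, FOSB and ID3, a target of BMP signalling that was named after its values were seen and stood at -0.18 (SE 0.04, adjusted p = 0.779) in C against A. The reverse order was met by 1 gene, KCTD18. Of the genes that limit the early response, ZFP36, which destabilises short-lived mRNAs, stood at -0.38 (SE 0.09, adjusted p = 0.922) and DUSP1, a phosphatase of MAP kinases, at -0.39 (SE 0.11, adjusted p = 0.999), both lower in C than in A in 5 of 5 lines. None passed in C against A of 21 tested other early and AP-1 genes, 20 upstream regulators, 12 attenuators, 14 AP-1 target genes and 8 heat shock genes. General measures of the libraries did not follow the letters in the same way. Replicate C was below A in 1 of 5 lines for total counts, in 1 for genes with a count, in 3 for the mitochondrial share (1.47% to 2.79% of counts), in 3 for the share of the 10 largest genes and in 2 for summed heat shock TPM (4124 to 5037).

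**Figure D3:**
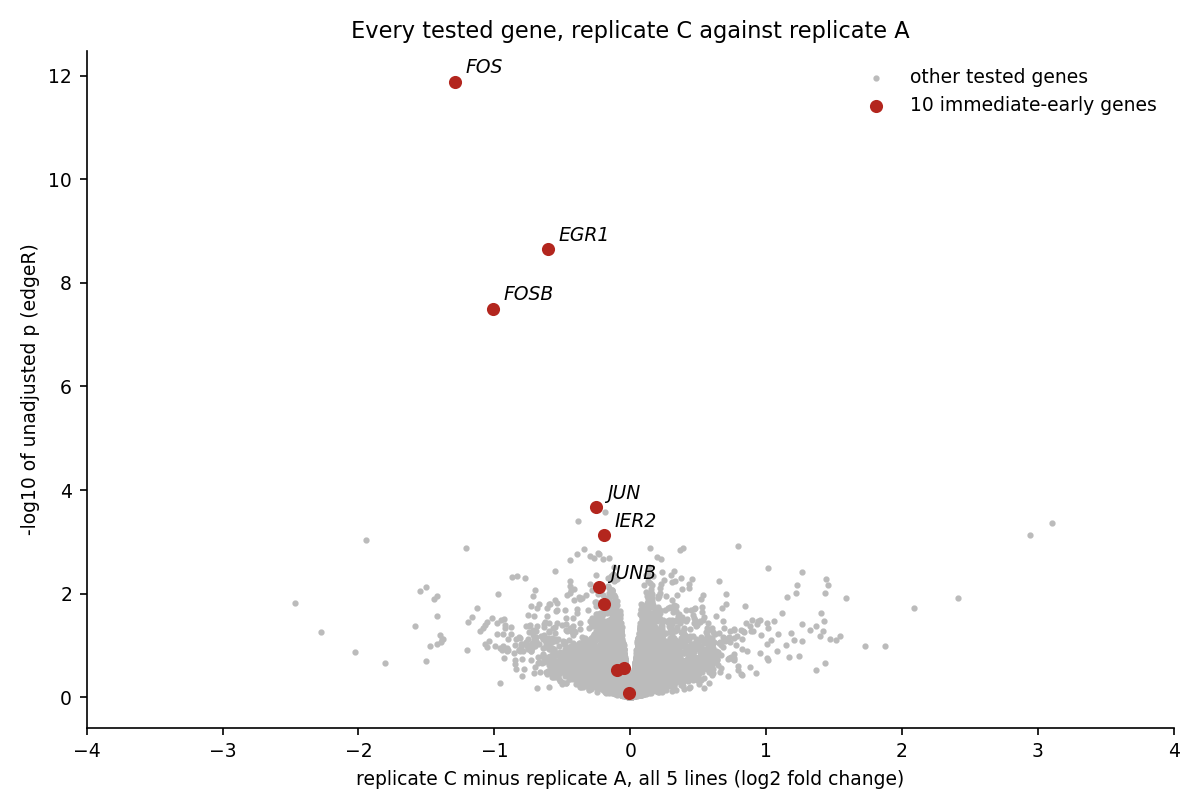
Log2 fold change of replicate C against A over the 5 lines (x axis) and -log10 of the unadjusted p from edgeR (y axis) for the tested genes, with the 10 early genes in red, and 2 genes beyond 4 on the x axis not drawn. FOS, EGR1 and FOSB stand above all other genes on the y axis, and JUN and IER2 lie at the upper edge of the rest.

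The spread within lines, as the pooled SD of log2(CPM + 0.5), was 0.690 for FOS, 0.545 for FOSB and 0.328 for EGR1, against a median of 0.103 over all tested genes. Lower spreads than these were found in 99.4%, 98.9% and 92.9% of genes. JUNB (0.180), JUN (0.163), KLF4 (0.160), NR4A1 (0.155) and IER2 (0.130) lay nearer the median, and IER3 stood at 0.0746. KLF6, a factor of growth control, had a spread of 0.0276, and only 0.622% of genes had a lower one, though on the deposited TPM its spread was 0.0663. Without the libraries of replicate C the spread was 0.35 for FOS, 0.34 for FOSB and 0.14 for EGR1. The letter accounted for 93.9% of the within-line variance of FOS (rank 1 of 14961), 88.7% of that of EGR1 (rank 5) and 86.0% of that of FOSB (rank 7), with a median of 14.2% over all genes. JUN (58.5%) and IER2 (54.9%) came next among the 10, and KLF6 was at 8.24%. In the edgeR fits, the coefficient of variation between replicates was 31.7% for FOS, 26.3% for FOSB and 15.6% for EGR1 with line alone, and 8.53%, 10.8% and 6.52% with the letter added. The common value over all genes hardly moved, from 5.45% to 5.64%.

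**Figure D4:**
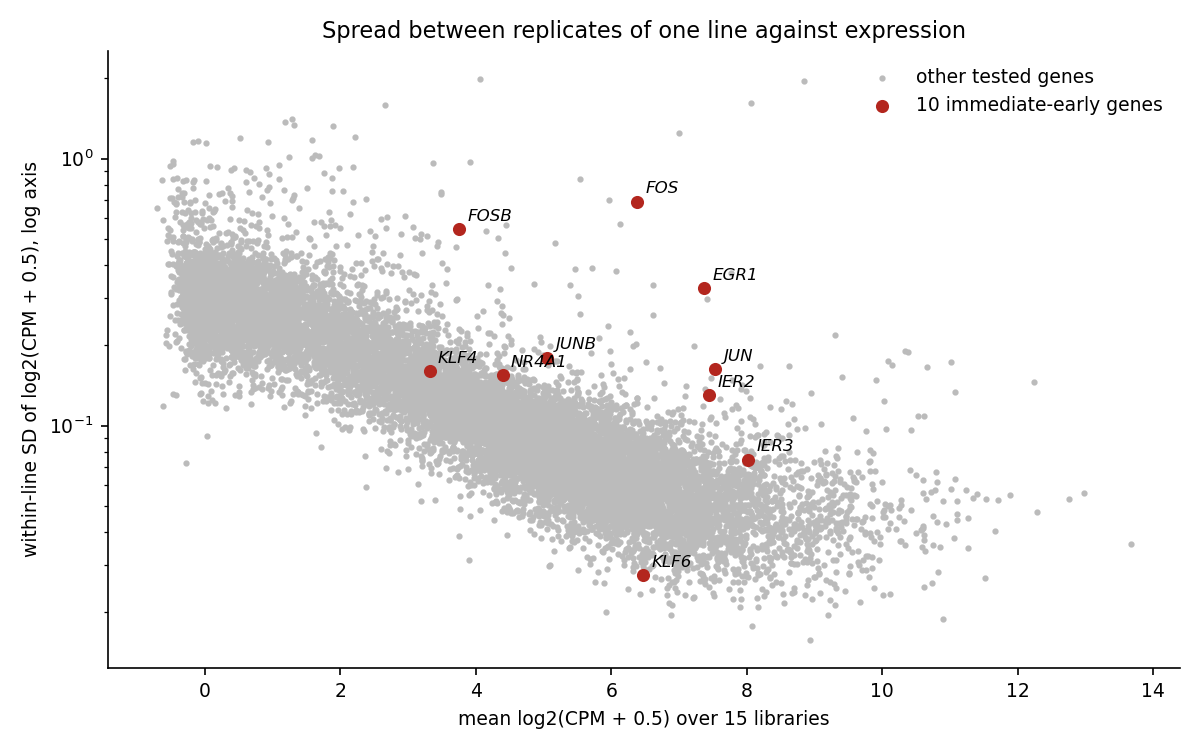
Pooled SD between replicates within a line (y axis, log scale) against mean log2(CPM + 0.5) over the 15 libraries (x axis), with the 10 early genes in red among all tested genes. FOS (0.690), FOSB (0.545) and EGR1 (0.328) lie far above genes of like expression and KLF6 (0.0276) at the lower edge.

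Guides against CD4 were compared with no guides in the VP64 lines, which asks what else differs where the activator is sent to its target. Other differences between these lines cannot be told apart from the guides. FOS was 3.50-fold higher with guides, NR4A1 2.05-fold, IER3 1.76-fold and FOSB 1.67-fold. Of the 10 genes, 9 passed (8 higher, 1 lower), where 40.6% of all genes tested passed (19.3% higher, 21.3% lower), with a median log2 change of 0.64 over the 10 and of -0.0004 over all genes. No library of 1 line reached into the range of the other for 6 of the 10, as for 49.4% of all genes. The log2 change of FOS was 1.81 (SE 0.35, adjusted p = 0.000271), and its lowest library with guides, 132 CPM, lay above the highest without, 95.1. NR4A1, which is induced early by many signals, stood at 30.3, 29.8 and 27.5 CPM with guides and 16.6, 12.7 and 13.4 without (1.03, SE 0.11, adjusted p = 1.1e-07). IER3 stood at 384, 385 and 345 CPM against 223, 206 and 206 (0.81, SE 0.05, adjusted p = 7.25e-11). For NR4A1 and IER3 the libraries with guides were all higher, with a wide gap.

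KLF4, a zinc finger factor of differentiation and growth arrest, stood at 12.0, 12.4 and 8.78 CPM with guides against 7.37, 6.55 and 7.88 (0.61, SE 0.13, adjusted p = 0.000457), and KLF6 at 95.9, 93.9 and 96.3 against 80.2, 83.8 and 83.1 (0.21, SE 0.04, adjusted p = 0.000135). JUNB was higher by 0.42 (SE 0.11, adjusted p = 0.0043), EGR1 by 0.66 (SE 0.18, adjusted p = 0.00528) and FOSB by 0.74 (SE 0.30, adjusted p = 0.0495). Libraries of the 2 lines overlapped for EGR1 and FOSB, whose replicate C with guides lay within the range without. Leaving out replicate A of the VP64 line with guides ended the calls of EGR1 (0.44) and FOSB (0.43). The FOSB call also ended without replicate B of that line (0.74), without B (0.68) or C (0.65) of the line without guides, with the length offset (0.68) and in DESeq2 (0.75). JUN went the other way, at 238, 195 and 152 CPM with guides and 246, 227 and 221 without (-0.25, SE 0.10, adjusted p = 0.0439), and without replicate C of the line with guides it was -0.08 and not called. Leaving out replicate B with guides, or A, B or C without, also ended the JUN call (-0.26 to -0.19), as did the length offset (-0.23), a filter at a mean of 1 CPM (-0.23), DESeq2 (-0.24) and the compared libraries alone (-0.24). IER2 did not pass (0.04, SE 0.08, adjusted p = 0.693), though it did without replicate C of the line with guides (0.18, adjusted p = 0.0353).

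In the p65 lines, guides against none gave 8 of 10 genes past the threshold (7 higher, 1 lower), with 38.9% of all genes past it (18.7% higher, 20.2% lower) and medians of 0.40 over the 10 and -0.01 over all genes. FOS was 3.52-fold higher (1.82, SE 0.42, adjusted p = 0.00131), and its lowest library with guides (44.9 CPM) lay above the highest without (35.3). NR4A1 stood at 30.1, 27.8 and 20.9 CPM with guides and 13.5, 13.3 and 12.98 without (0.98, SE 0.11, adjusted p = 2.7e-07). IER3 stood at 247, 247 and 221 CPM against 160, 164 and 178 (0.51, SE 0.05, adjusted p = 1.15e-07). Neither gene's groups overlapped, as held for 7 of the 10 genes and 47.3% of all. EGR1 was higher by 0.81 (SE 0.19, adjusted p = 0.00149), FOSB by 0.91 (SE 0.34, adjusted p = 0.0413), JUNB by 0.30 (SE 0.11, adjusted p = 0.041) and KLF6 by 0.12 (SE 0.04, adjusted p = 0.0163). The FOSB call was lost without replicate A (0.64) or B (0.90) with guides and B (0.88) or C (0.56) without, and the JUNB call without replicate A (0.23) or B (0.25) with guides and A (0.27) or B (0.25) without. The KLF6 call was lost without replicate A with guides (0.12), without C of the line without guides (0.11) and with no filter on low counts (0.13). With the length offset all 3 were lost (FOSB 1.03, JUNB 0.30, KLF6 0.15), and in DESeq2 FOSB (0.90) and JUNB (0.32). JUN was lower by 0.38 (-0.38, SE 0.10, adjusted p = 0.00375), with 128, 122 and 122 CPM against 168, 163 and 152. KLF4 (0.29, SE 0.14, adjusted p = 0.0968) and IER2 (-0.04, SE 0.08, adjusted p = 0.74) did not pass.

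**Figure D5:**
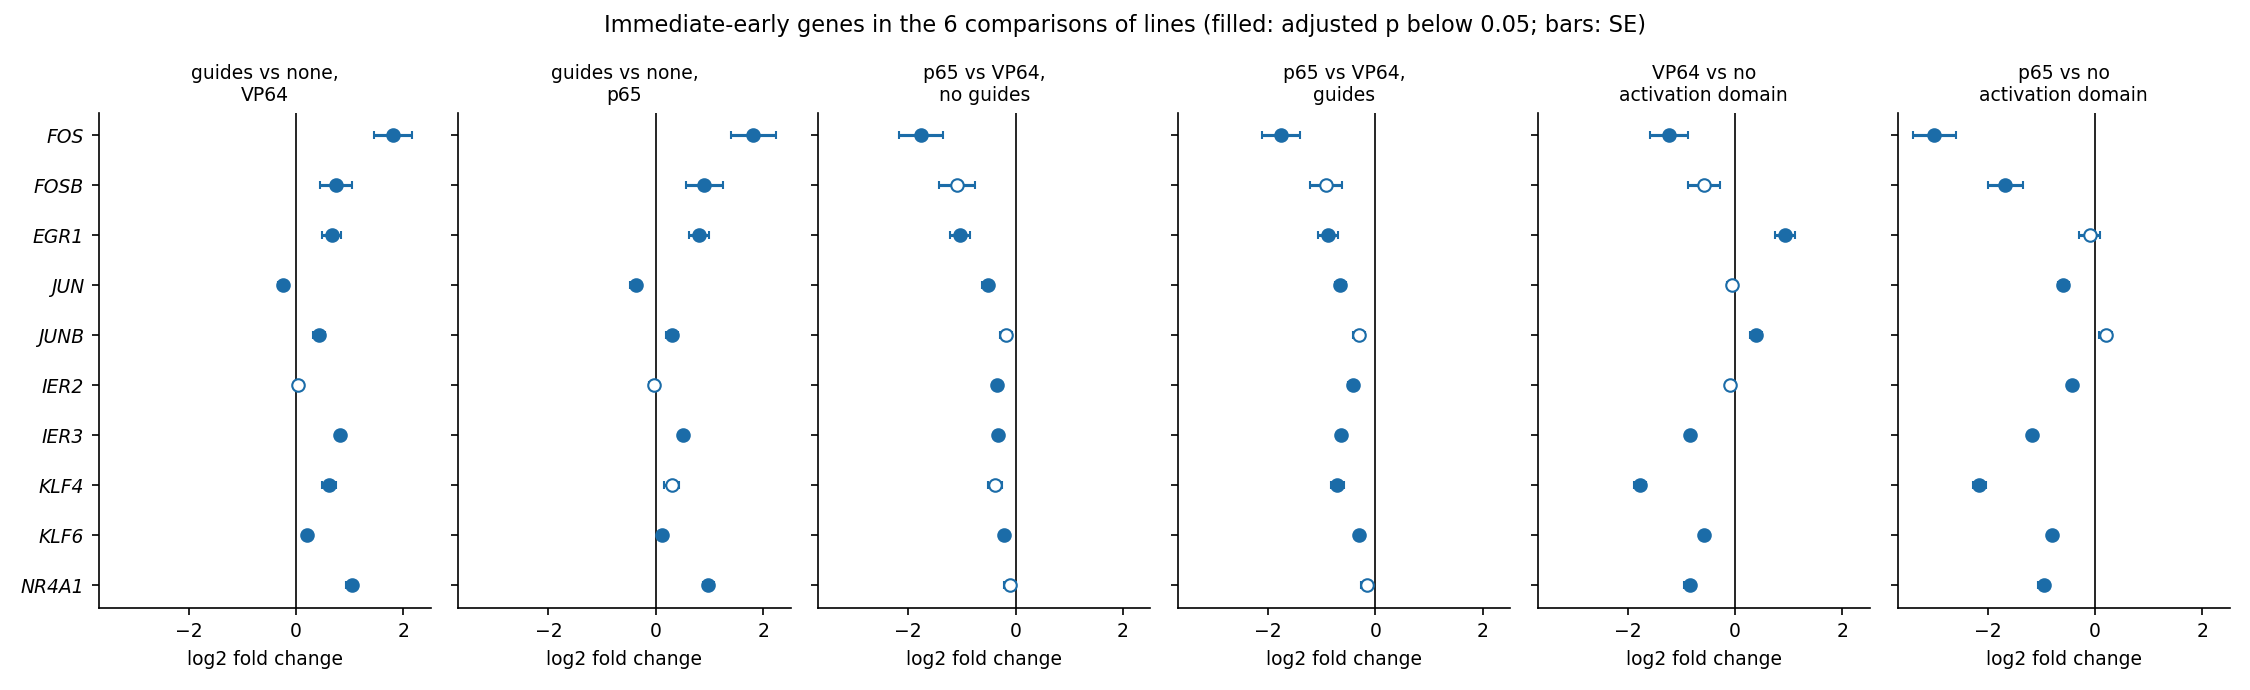
Log2 fold change (x axis) of the 10 genes (y axis) in the 6 comparisons of lines, with bars for the SE, filled points for an adjusted p below 0.05 and open points for the others. FOS lies at 1.81 and 1.82 in the guide panels, all points lie at or below 0 in the p65 against VP64 panels, and KLF4 reaches -2.16 in the last panel.

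The change with guides in the p65 lines minus that in the VP64 lines was tested as 1 contrast. Of the 10 genes 1 passed, IER3 (-0.31, SE 0.07, adjusted p = 0.0437), against 0.956% of all genes (0.769% higher, 0.187% lower). Its gain with guides was 1.76-fold in the VP64 lines and 1.42-fold in the p65 lines. The call was lost with DESeq2 size factors (adjusted p = 0.0526), with an offset from effective lengths (adjusted p = 0.139) and with only the libraries compared (adjusted p = 0.0756). It was also lost without replicate A or B with guides or B or C without guides in the VP64 lines, and without C with guides or B or C without guides in the p65 lines (-0.33 to -0.26), and held with the DESeq2 Wald test (adjusted p = 0.00414). FOS differed by 0.01 (SE 0.53), an error far wider than this difference.

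The p65 lines were next compared with the VP64 lines, which asks what differs with the recruited domain. Without guides, 6 of 10 genes passed and all 6 were lower with p65, where 2.11% of all genes passed (0.388% higher, 1.72% lower). The count over all genes fell from 315 to 185 to 201 without replicate A, B or C of the VP64 line or A or B of the p65 line. FOS was 3.40-fold lower (-1.77, SE 0.41, adjusted p = 0.0226), with no library of the p65 line above 35.3 CPM and none of the VP64 line below 51.3. EGR1 was 2.04-fold lower (-1.03, SE 0.19, adjusted p = 0.00267) and JUN 1.44-fold (-0.52, SE 0.10, adjusted p = 0.00274). IER2 stood at 151, 148 and 150.2 CPM with p65 and 201, 190 and 176 with VP64 (-0.34, SE 0.08, adjusted p = 0.0234). IER3 (-0.33, SE 0.05, adjusted p = 0.000668) and KLF6 (-0.21, SE 0.04, adjusted p = 0.00342) were lower too. FOSB (-1.09, SE 0.34, adjusted p = 0.114), KLF4 (-0.39, adjusted p = 0.167), JUNB (-0.18, adjusted p = 0.506) and NR4A1 (-0.10, adjusted p = 0.754) did not pass. The groups did not overlap for 8 of the 10 genes, as for 20.4% of all, with JUNB and NR4A1 the exceptions. The FOS call was lost without replicate A (-1.54) or B (-1.77) of the VP64 line and without B (-1.74) or C (-1.39) of the p65 line. The IER2 call was lost without replicate A (-0.29) or B (-0.34) of the VP64 line and without A (-0.34), B (-0.33) or C (-0.34) of the p65 line. An offset from effective lengths ended the calls of FOS (-1.67), IER2 (-0.33) and KLF6 (-0.20). With only the libraries compared FOSB passed (-1.08, adjusted p = 0.035), as it did without replicate A of the p65 line (-1.60). It also passed with a term for the replicate letter in the edgeR fit (-1.13, adjusted p = 0.000287).

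With guides, 7 of 10 genes passed and all 7 were lower in the p65 line, where 7.92% of all genes passed (3.72% higher, 4.2% lower). The count over all genes fell from 1185 to 681 without replicate B of the VP64 line and to 709 without C of the p65 line. The log2 changes were -1.76 for FOS (SE 0.35, adjusted p = 0.00252), -0.88 for EGR1 (SE 0.18, adjusted p = 0.00328), -0.71 for KLF4 (SE 0.13, adjusted p = 0.000984) and -0.65 for JUN (SE 0.10, adjusted p = 0.00013). IER3 (-0.64, SE 0.05, adjusted p = 3.54e-08), IER2 (-0.42, SE 0.08, adjusted p = 0.00152) and KLF6 (-0.30, SE 0.04, adjusted p = 2.64e-05) were also lower. FOSB (-0.92, SE 0.30, adjusted p = 0.0654), JUNB (-0.30, adjusted p = 0.105) and NR4A1 (-0.16, adjusted p = 0.425) did not pass. FOSB did pass without replicate C of the VP64 line or A of the p65 line (-1.19 in each case). It also passed with a term for the replicate letter in the edgeR fit (-0.90, adjusted p = 0.000378). JUNB passed without replicate C of the VP64 line (-0.40, adjusted p = 0.0421). Libraries of the 2 lines overlapped for FOSB, JUNB and NR4A1 and for none of the other 7 genes, against 22.2% of all genes without overlap. The median over the 10 genes was -0.65 with guides and -0.36 without, and the medians over all genes were 0.002 and 0.004. CD4 did not pass in either comparison (0.27, adjusted p = 0.485 without guides, and 0.12, adjusted p = 0.556 with guides).

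The VP64 line and the p65 line without guides were each compared with the no-domain line. In both of them dCas12a itself also carried VP64, which the no-domain line lacks. The domain on the nanobody and the VP64 on dCas12a therefore cannot be told apart here. These 2 comparisons share the no-domain line, so their values are given side by side. KLF4 stood at 25.1, 26.3 and 23.0 CPM in that line against 7.37, 6.55 and 7.88 with VP64 and 4.94, 6.14 and 5.59 with p65. Its log2 change was -1.77 with VP64 (SE 0.12, adjusted p = 5.42e-11) and -2.16 with p65 (SE 0.12, adjusted p = 3.16e-12). All libraries with a domain lay well below those without. KLF6 stood at 123, 125 and 123 CPM without a domain and changed by -0.58 (SE 0.04, adjusted p = 4.48e-11) and -0.79 (SE 0.04, adjusted p = 3.28e-13). IER3, at 372, 381 and 382 CPM without a domain, changed by -0.84 (SE 0.05, adjusted p = 2.23e-11) and -1.18 (SE 0.05, adjusted p = 1.12e-13). For both genes the libraries without a domain were all higher. NR4A1, at 25.6, 25.0 and 26.5 CPM, changed by -0.85 (SE 0.11, adjusted p = 1.06e-06) and -0.95 (SE 0.11, adjusted p = 1.95e-07).

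FOS was 2.34-fold lower with VP64 (log2 change -1.23, SE 0.35, adjusted p = 0.00641) and 7.98-fold lower with p65 (-3.00, SE 0.40, adjusted p = 2.16e-06). FOSB stood at -0.58 with VP64 (SE 0.29, adjusted p = 0.109). It passed there with only the libraries compared (-0.57, adjusted p = 0.00735) and without replicate C of the no-domain line (-0.78). A term for the replicate letter in the edgeR fit also made it pass (-0.59, adjusted p = 0.00155). With p65 FOSB fell by 1.67 (SE 0.32, adjusted p = 0.000177). EGR1 was higher by 0.93 with VP64 (SE 0.19, adjusted p = 0.000292) and stood at -0.10 with p65 (SE 0.19, adjusted p = 0.693). JUNB stood at 27.6, 25.3 and 23.4 CPM without a domain and was higher by 0.38 with VP64 (SE 0.12, adjusted p = 0.00921), a call lost without replicate A of the VP64 line (0.29). With p65 it did not pass (0.20, SE 0.12, adjusted p = 0.167), though it did with only the libraries compared (0.20, adjusted p = 0.0474). JUN (-0.06 and -0.59) and IER2 (-0.09 and -0.42) passed with p65 (adjusted p = 2.49e-05 and 0.000127) and not with VP64 (adjusted p = 0.61 and 0.388). The direct contrast of the p65 and VP64 lines without guides, given above, passed for FOS, EGR1, JUN and IER2 and not for FOSB or JUNB. With VP64, 7 genes passed (2 higher, 5 lower), where 47.6% of all did (23.6% higher, 24% lower). With p65, 8 passed, all lower, where 49.7% of all did (24.7% higher, 24.9% lower). The groups did not overlap for 7 and 8 of the genes, as for 57.7% and 57.2% of all.

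By mean CPM, FOS, FOSB, JUNB, EGR1 and NR4A1 were highest in the VP64 line with guides, and JUN, IER2, IER3, KLF4 and KLF6 in the no-domain line. Most neighbours overlapped. In FOS the lines ran from the VP64 line with guides (257) through the line without a domain (173), the p65 line with guides (76.3) and the VP64 line without guides (73.3) to the p65 line without guides (21.9), and only the last step had no overlap. In FOSB and JUNB no neighbours were apart. KLF6 had no overlap at any step, from 123 through 95.4, 82.4 and 77.6 to 71.3 CPM (no domain, VP64 with guides, VP64 without, p65 with, p65 without). How many of all genes have such gaps between neighbouring lines was not counted. On the deposited TPM, KLF6 did overlap between the VP64 line without guides (24.85 to 26.04) and the p65 line with guides (23.6 to 26.27).

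Other genes of the pathway were counted from lists, beside the shares of all genes that passed. With guides these were 19.3% higher and 21.3% lower in the VP64 lines and 18.7% and 20.2% in the p65 lines, against no domain 23.6% and 24% with VP64 and 24.7% and 24.9% with p65, and in p65 against VP64 0.388% and 1.72% without and 3.72% and 4.2% with guides. Other early and AP-1 genes, 21 tested, numbered 11 higher and 7 lower with guides in the VP64 lines and 8 and 7 in the p65 lines. The matricellular early gene CCN2 went from 528 ± 28.7 to 272 ± 24.9 CPM with guides in the VP64 lines (SD, n = 3; -0.96, SE 0.07, adjusted p = 1.94e-10), against the direction of FOS and NR4A1, and CCN1 (-0.62, SE 0.05, adjusted p = 4.25e-09), GADD45B (-0.77, SE 0.05, adjusted p = 2.89e-10) and FOSL2 (-0.49, SE 0.05, adjusted p = 2.95e-08) were lower too. In the p65 lines MAFF was higher (0.61, SE 0.07, adjusted p = 3.6e-07) and CCN2 (-0.55, SE 0.06, adjusted p = 5.6e-07) lower. In p65 against VP64, 1 was higher and 5 lower without guides and 3 and 5 with guides, FOSL1 among the lower (-0.23, SE 0.04, adjusted p = 0.000774, and -0.20, SE 0.04, adjusted p = 0.00129). Against no domain the counts were 8 and 9 with VP64 and 4 and 9 with p65, CCN1 being higher in both (0.78, adjusted p = 7.52e-11, and 0.56, adjusted p = 1.06e-08). In the difference of guide effects 2 passed, CCN1 (0.39, adjusted p = 0.00731) and CCN2 (0.40, adjusted p = 0.0323), where 0.769% of all genes were higher and 0.187% lower.

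Attenuators of the early response, 12 tested, were higher with guides in 8 cases and lower in none in the VP64 lines, and higher in 6 and lower in 1 in the p65 lines, where 19.3% and 18.7% of all genes were higher. The MAP kinase phosphatase genes DUSP4 (0.80, SE 0.06, adjusted p = 8.41e-10, and 0.49, SE 0.06, adjusted p = 1.06e-06) and DUSP6 (0.68, SE 0.06, adjusted p = 5.15e-09, and 0.53, SE 0.06, adjusted p = 1.94e-07) led them. Against no domain, 2 were higher and 8 lower with each domain, with DUSP5 (-0.93, SE 0.05, adjusted p = 3.76e-12, and -1.02, SE 0.05, adjusted p = 6.97e-13) and DUSP4 (-0.97 and -0.94) among the lower. In p65 against VP64, 1 was lower without guides (ZFP36L1, -0.22, adjusted p = 0.016) and 4 with guides, ZFP36 among them (-0.57, SE 0.15, adjusted p = 0.0218). None passed in the difference of guide effects.

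Of 20 upstream regulators, 3 were higher and 7 lower with guides in the VP64 lines and 3 and 10 in the p65 lines, where 40.6% and 38.9% of all genes passed, with SRF, the factor of the CArG box, at -0.31 (SE 0.05, adjusted p = 7.87e-05) in the first. No regulator passed in p65 against VP64, without or with guides, or in the difference of guide effects (smallest adjusted p 0.228, 0.054 and 0.382, edgeR). Against no domain, 5 were higher and 5 lower with VP64 and 7 and 5 with p65. AP-1 target genes, 14 tested, were higher in 1 and lower in 4 cases with guides in the VP64 lines and higher in 4 and lower in 1 in the p65 lines. Against no domain, the cytokine gene IL11 was higher by 2.04 with VP64 and 1.91 with p65, and the chemokine gene CXCL8 stood at -1.28 and -1.54, with 4 higher and 6 lower with VP64 and 4 and 8 with p65. In p65 against VP64, 1 was lower without guides and 3 were higher and 2 lower with guides. The difference of guide effects had 3 higher and 1 lower, where 0.769% of all genes were higher and 0.187% lower.

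Marker lists were counted in the same comparisons. Melanocyte lineage markers, 10 tested, were higher with guides in 7 cases in the VP64 lines and in 5 in the p65 lines (1 lower), where 19.3% and 18.7% of all genes were higher, and all 11 summed to 589 to 686 TPM with guides against 363 to 386 without (VP64) and 432 to 535 against 311 to 330 (p65). Without an activation domain they summed to 397 to 408. Of 8 heat shock genes, 4 were higher and 3 lower with guides in each pair, none passed in p65 against VP64, and 7 and 6 were lower against no domain with VP64 and p65, as were 24% and 24.9% of all genes. Their sum was 4932 to 5037 TPM without a domain and 4124 to 4670 in the other 4 lines. Leukocyte markers summed to 4.58 to 5.73 TPM without a domain and 1.33 to 3.24 in the other lines. The part of these differences in the results on the early genes was not tested. In p65 against VP64, 1 melanocyte marker was higher and 1 lower without guides and 4 were lower with guides. T cell markers summed to 0.51 to 2.71 TPM, epithelial markers to 55.8 to 79.4 and fibroblast and endothelial markers to 2.2 to 10.4 over the 15 libraries.

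The 3 genes most like each early gene over the 15 libraries, by Pearson's r of log2(CPM + 0.5), are a description, since the points share line and replicate differences. FOSB was the gene most like FOS (r = 0.97), followed by ZFP36 (0.94) and SLC22A4 (0.93), and the last 2 were also next to FOSB (0.89 for each). JUN and IER2 were near each other (0.91), with TLR6 nearest to JUN (0.93) and VLDLR to IER2 (0.95). EGR1 was most like TUBA1A (0.92), JUNB like CHPF (0.95), NR4A1 like TBC1D17 (0.98) and IER3 like TKT (0.98). KLF4 and KLF6 shared NGFR, a receptor of neurotrophins, among their nearest genes (0.98 for each), beside MID1IP1 and NIBAN1. How the counting used strand was not given in the sources at hand, and 5 of the early genes overlap a gene on the other strand. FOSB overlaps ERCC1 (1646 to 2965 counts per library), JUNB overlaps HOOK2 (121 to 212) and IER2 overlaps ENSG00000267598 (20.8 to 47.9), so reads of each pair may not be told apart. IER3-AS1 (1.24 to 14.9 counts) and NR4A1AS (0 to 4.34) were low.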

How the data were processed

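Total RNA of 15 libraries (5 lines, replicates A to C) was sequenced, and each library has its own table. The deposited expected counts are RSEM's estimated reads per gene after STAR alignment to hg38, per the submitters' processing notes. The deposited TPM are RSEM's length-corrected abundances, per the file headers. RSEM's effective lengths (another unit, bases), also deposited per the file headers, served 1 alternative. Tool versions, options and strand use were not given in the sources used here. Of 58813 entries, 58721 matched GENCODE release 29 and 92 are spike-in sequences, which were left out.

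Expected counts were rounded and fitted in edgeR 4.0.16 (R 4.3.3) by quasi-likelihood with TMM (factors 0.983 to 1.014), filterByExpr at a minimum count of 10 and 1 coefficient per line, in 7 comparisons of lines, with Benjamini-Hochberg adjustment over 14961 genes and a threshold of 0.05. Totals of 15643705 to 23072512 counts set the counting precision. The 3 comparisons of replicate letters, and leaving out all libraries of 1 letter or line, were added after the data had been seen. CPM are rounded counts per 1e6 scaled counts, with a pseudocount of 0.5 for log2 values. Fits were tested on simulated counts with a common spread for all genes, which does not cover genes as variable as FOS, FOSB and EGR1. All 10 genes are named in every comparison of lines, CD4 as the target, up to 4 genes of each list with the smallest p, and 3 most-alike genes each with a mean of at least 1 CPM. The genes and lists were chosen with earlier results of these data known. Alternatives were DESeq2 size factors, other filters, the DESeq2 1.42.0 Wald test, fits of the compared libraries alone, a term for the replicate letter, an effective-length offset, and leaving out replicates.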

Additional observations from a re-analysis of the deposited data

Results flagged for a closer look

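The change of IER3 with guides differed between the p65 and VP64 lines, by a test of the difference itself. On the log2 scale the change in the p65 lines was lower by 0.31 (-0.31, SE 0.07, adjusted p = 0.0437, edgeR), with all libraries with guides above all without in both pairs. The call did not hold with DESeq2 size factors (adjusted p = 0.0526), an effective-length offset (0.139), a replicate block (0.0638), only the libraries compared (0.0756) or without any 1 of 7 of the 12 libraries.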

How the results depend on the processing

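Of the 148 alternative counts of early genes past the threshold, 124 lay within 1.5 times the reported count. Of 1330 alternative values of single genes, replicate spreads included, 1182 stayed as reported. For changes this means the same direction and side of the threshold, and for spreads a similar size. With an effective-length offset the counts were 5 (guides, p65 lines), 3 (p65 against VP64, no guides), 0 (difference of guide effects) and 0 (replicate C against B). The difference of guide effects, 1 gene as reported, was also 0 with DESeq2 size factors and with only the libraries compared. Without a low-count filter, replicate B against A called 3 of the genes and C against A 6, and without the no-domain line C against B called 1. The cause was not tested. Counts over all genes tested also moved by more than 1.5 times. With the length offset they were 3851 against 5823 (guides, p65 lines), 109 against 315 and 437 against 1185 (p65 against VP64, without and with guides), 31 against 143 (difference of guide effects) and 0 against 2 (C against B). Without a filter they were 545 against 315 (p65 against VP64, no guides), 360 against 143 (difference), and 41, 52 and 57 against 0, 3 and 2 (B against A, C against A, C against B). The Wald test gave 247 against 143 (difference), and the compared libraries alone 706 against 1185 (p65 against VP64, guides). Without every replicate B the 4 comparisons of guides and of p65 with VP64 gave 3922, 3640, 94 and 389, and the difference 18. Without every replicate A, p65 against VP64 without guides gave 120, and without every replicate C the same with guides gave 760 and the difference 88. Without single libraries p65 against VP64 gave 185 to 201 (no guides, 5 libraries) and 681 and 709 (guides), and the difference gave 95 and 91 (without replicate B of the VP64 or the p65 line without guides). Without the no-domain line B against A gave 2 genes, and C against B gave 4 without the VP64 or the p65 line without guides.

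Same-lettered libraries did not deviate together over all genes (r from -0.0875 to 0.0961), so the letters were not taken as pairs. FOS, FOSB and EGR1 did follow the letter, as described above. With the replicate block the counts were 9 and 8 (guides, VP64 and p65 lines), 7 and 8 (p65 against VP64, without and with guides), 8 and 8 (VP64 and p65 against no domain) and 0 (difference of guide effects). With it FOSB passed in p65 against VP64 without guides (-1.13, adjusted p = 0.000287) and with guides (-0.90, adjusted p = 0.000378) and in VP64 against no domain (-0.59, adjusted p = 0.00155), and IER3 no longer passed in the difference of guide effects (-0.31, adjusted p = 0.0638). It changed no other call of the 10 genes.

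With single replicates, or all libraries of 1 letter, left out, counts ranged from 6 to 9 (guides, VP64 lines), 4 to 8 (guides, p65 lines), 1 to 6 and 4 to 9 (p65 against VP64, without and with guides), 6 to 8 and 8 to 9 (VP64 and p65 against no domain) and 0 to 1 (difference of guide effects). The lowest counts of the guide effect in the p65 lines and of both p65 against VP64 contrasts came without every replicate B, which leaves 2 libraries per line. Values that changed sign ranged, for IER2, from -0.083 to 0.18 (guides, VP64 lines) and -0.078 to 0.0037 (guides, p65 lines), for NR4A1 from -0.18 to 0.018 (p65 against VP64, no guides), for JUN from -0.12 to 0.0039 (VP64 against no domain) and for EGR1 from -0.26 to 0.036 (p65 against no domain). In the difference of guide effects the ranges were -0.37 to 0.54 (FOS), -0.19 to 0.67 (FOSB), -0.28 to 0.034 (JUN), -0.24 to 0.067 (JUNB), -0.080 to 0.38 (EGR1), -0.20 to 0.054 (IER2) and -0.25 to 0.093 (NR4A1). Other reversals were FOS in that difference with the DESeq2 Wald test (-0.0038) and the length offset (-0.0047), NR4A1 there with the length offset (0.035), and KLF6 in replicate C against A with the length offset (0.040) and without the p65 line without guides (0.0088). None of these had passed as reported. Depth limits FOSB and KLF4 most, at 70 to 545 counts per library.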
